A study of Ovis aries with 48 samples.

Results

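MIR143 is the gene of 1 microRNA, a short RNA that represses the messenger RNAs it pairs with. It was taken as the row named MIR143 in the 2 microRNA tables of a small RNA sequencing study of sheep fat, 1 of 4920 features in all RNA classes. It was followed in all 48 libraries, as a level and as a share of the microRNA reads of each library. The row does not separate the 2 arms of the hairpin.

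The libraries came from fat of 16 female sheep, each the offspring of a mother injected or kept as a control during pregnancy. In the T cohort, 4 prenatal T sheep (48, 185, 233 and 255) had mothers given testosterone propionate in corn oil, 100 mg or about 1.2 mg/kg, into the muscle 2 times a week between gestational days 30 and 90. They were compared with 4 control sheep (098, 131, 132 and 201), for which the labels name no vehicle, and each of these 8 sheep gave subcutaneous, visceral, epicardial and perirenal fat. In the BPA cohort, 4 sheep (910, 918, 977 and 984) had mothers given bisphenol A in corn oil under the skin daily, 0.5 mg/kg/day over the same days. Their 4 controls (902, 908, 924 and 928) had mothers given corn oil alone, and these 8 sheep gave subcutaneous and visceral fat. All animals received a similar maintenance diet. Each of the 12 groups thus holds 4 libraries from 4 sheep, and the treatment reached the fat through the mother, before birth.

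In mammals MIR143 is made from the same primary transcript as MIR145 and is abundant in smooth muscle, where the pair favours the contractile state of vascular smooth muscle cells. In human preadipocytes MIR143 rises during differentiation and its inhibition holds differentiation back. In mice its excess in obesity has been tied to poorer insulin signalling in the liver. Fat holds both kinds of cell, as adipocyte precursors and as the walls of its vessels. In the sheep annotation ARS-UI_Ramb_v3.0, used here for names and neighbours only, MIR143 lies inside the long noncoding RNA gene LOC114114896. That host gene had between 0 and 12 reads per library. MIR145 has no row in the tables and no entry in that annotation, so the partner could not be followed. The microRNA tables name no gene that defines adipocytes, and the fat labels were not checked against such genes.

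MIR143 was among the most abundant microRNAs of every library. It had 4812 to 200613 reads, of 222537 to 1533680 microRNA reads per library, and ranked between 1 and 12. Counting error is small at this depth: the 95% Wilson interval of the share was 0.0633 to 0.213 percentage points wide, which covers counting error only. The library numbers in the labels fall into 2 sets, later numbers from 81 on and early numbers up to 48, with 24 libraries in each. The labels do not say what the sets are. snoRNA reads took 1.37% to 3.0% of the reads of the 4 RNA classes in later libraries and 0.277% to 1.34% in early ones, so that the sets did not overlap in this measure. Of the T cohort, all epicardial control libraries are later ones, and all subcutaneous and perirenal prenatal T libraries are early ones. All subcutaneous BPA libraries are later ones.

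Perirenal fat held the highest MIR143 shares. In perirenal fat of prenatal T sheep MIR143 made up 10.9%, 10.7%, 14.3% and 17.5% of microRNA reads in sheep 48, 185, 233 and 255. In perirenal fat of control sheep it made up 3.72%, 9.88%, 14.7% and 15.3% in sheep 098, 131, 132 and 201. The low control library, of sheep 098, is the only later one among these 8, and the groups overlap. MIR143 was the most abundant microRNA of all in perirenal fat of prenatal T sheep 233 and 255 and of control sheep 201, and also in visceral fat of prenatal T sheep 255.

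In every sheep of the T cohort subcutaneous fat held a lower share than perirenal fat. The shares were 2.44%, 4.37%, 7.0% and 7.38% in prenatal T sheep 48, 185, 233 and 255. They were 3.17%, 2.49%, 7.26% and 2.11% in control sheep 098, 131, 132 and 201. One control library, of sheep 132, lay among the high prenatal T libraries, and the groups overlap.

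In visceral fat 1 library stood far above the others. Prenatal T sheep 48, 185 and 233 had 2.16%, 1.94% and 5.34%, and prenatal T sheep 255 had 15.4%. Control sheep 098, 131, 132 and 201 had 1.96%, 2.73%, 4.51% and 2.11%. The library of sheep 255 is the only early one of the visceral prenatal T group, and the other 3 spanned the control range.

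Epicardial fat, the fat on the heart, held the lowest mean share of the 4 depots in control sheep. Prenatal T sheep 48, 185, 233 and 255 had 2.39%, 9.12%, 2.64% and 7.32%. Control sheep 098, 131, 132 and 201 had 2.54%, 1.39%, 2.65% and 2.30%. The 2 prenatal T libraries above all controls, of sheep 185 and 255, are early ones, whereas the other 2, which are later ones, lay within the control range.

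In the BPA cohort the shares ran between 1.75% and 7.52%. Subcutaneous fat of BPA sheep 910, 918, 977 and 984 had 2.58%, 2.82%, 4.03% and 3.18%, and that of control sheep 902, 908, 924 and 928 had 2.73%, 7.15%, 3.10% and 3.77%. Visceral fat of BPA sheep had 1.75%, 4.10%, 4.59% and 7.52% in the same order of sheep, and that of control sheep had 2.48%, 4.31%, 4.23% and 3.83%. Treated and control libraries overlap in both depots. The high subcutaneous control, of sheep 908, is the only early library of the 8 subcutaneous ones.

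**Figure D1:**
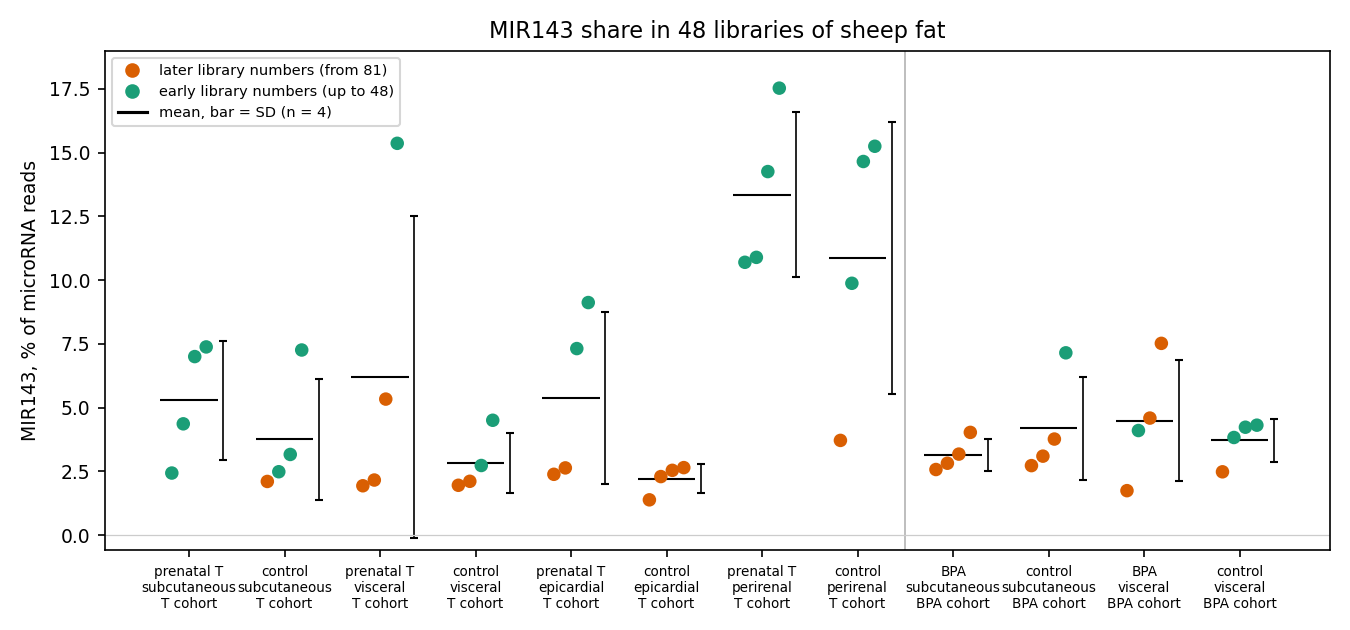
MIR143 as a percentage of microRNA reads in each of the 48 libraries, by cohort, depot and treatment, with the treated group left of its control. Points are libraries coloured by library-number set, the horizontal line is the mean and the bar beside it the SD of 4 sheep; both perirenal groups reach above 15%, and most points above 7% are early libraries.

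Which depot holds more MIR143 was tested within each treatment of the T cohort. The deposited values of different depots are not on 1 scale, so the counts of the libraries compared were rescaled together by the median ratio of their microRNAs. The rescaled values were compared as log2(value + 1) with limma, in 1 fit of 16 libraries per treatment, with Benjamini-Hochberg adjustment over the microRNAs tested and an adjusted p under 0.05 as the threshold. On the common scale of the cohort, MIR143 averaged 64400 ± 8515 rescaled counts in perirenal fat of prenatal T sheep and 73576 ± 31410 in that of control sheep (SD, n = 4 each). It averaged 34363 ± 11404 in subcutaneous fat of prenatal T sheep and 27384 ± 13958 in that of controls, and 33293 ± 27205 in visceral fat of prenatal T sheep and 22587 ± 4680 in that of controls. In epicardial fat it averaged 26357 ± 18417 in prenatal T sheep and 11916 ± 1474 in controls.

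In control sheep MIR143 was higher in perirenal fat than in the mean of the other 3 depots, by 1.87 log2 units (SE 0.31, adjusted p = 0.000289 by limma). This placed it 2nd of the 76 microRNAs tested, of which 13.2% were called in this comparison. It was lower in epicardial fat than in the mean of the other depots, by 1.56 log2 units (log2 difference -1.56, SE 0.31, adjusted p = 0.000675), the 3rd lowest of the 76, of which 42.1% were called. The subcutaneous difference was -0.01 (SE 0.31, adjusted p = 0.980) in a comparison where 47.4% were called, and the visceral one -0.30 (SE 0.31, adjusted p = 0.536) where 3.95% were called. Neither passed.

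The depots of the control sheep also differ in their library numbers. With the library-number set as a term in the same fit, the perirenal difference was 1.55 (adjusted p = 7.44e-05) and the epicardial one -0.92 (adjusted p = 0.0174). Among later control libraries alone, the 1 perirenal library (3.72%) lay above the 1 subcutaneous (2.11%), both visceral (1.96% and 2.11%) and all 4 epicardial ones (1.39% to 2.65%). Among early control libraries alone, the 3 perirenal ones (9.88% to 15.3%) lay above the 3 subcutaneous (2.49% to 7.26%) and both visceral ones (2.73% and 4.51%). Among these control libraries perirenal fat held the highest shares in each set. The later set holds only 1 perirenal library, of sheep 098. The epicardial control libraries are all later ones and could be compared in that set alone. By share, those of sheep 098, 132 and 201 (2.54%, 2.65% and 2.30%) lay above the later subcutaneous and visceral ones. That of sheep 131 (1.39%) lay below them. On the common scale of the cohort all 4 epicardial ones, at 10385 to 13397, lay below the later subcutaneous (16443) and visceral ones (18936 and 18274). Their order in the later set thus depended on the scale.

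In prenatal T sheep perirenal fat again had the highest mean share, 13.3%, against 6.20% in visceral, 5.37% in epicardial and 5.30% in subcutaneous fat. The order of these other 3 depended on the scale, since mean rescaled counts put subcutaneous fat (34363) above visceral (33293) and epicardial fat (26357). The difference in MIR143 between perirenal fat and the mean of the other 3 depots was 1.21 log2 units (SE 0.42, adjusted p = 0.0756 by limma), which did not pass. It was the 6th highest of 84 microRNAs, of which 10.7% were called. The difference passed with sheep as a block, since the 4 depots came from the same animals (1.21, adjusted p = 0.0321), and with the control and prenatal T libraries in 1 fit (1.26, adjusted p = 0.0197). Without sheep 255, whose visceral library was also rich in MIR143, it was 1.61 (adjusted p = 0.0195). With the library-number set as a term it was 0.42 (adjusted p = 0.386), and all 4 perirenal libraries are early ones. The epicardial difference was -0.81 (SE 0.42, adjusted p = 0.346, 4.76% called), the visceral one -0.38 (SE 0.42, adjusted p = 0.694, 0% called) and the subcutaneous one -0.03 (SE 0.42, adjusted p = 0.946, 38.1% called). With the set as a term the subcutaneous difference was -0.82 (adjusted p = 0.0225), which passed. The visceral one turned to 0.74 (adjusted p = 0.436). In this fit all subcutaneous and perirenal libraries are early ones, so the set term rests on visceral and epicardial fat. The early libraries there are the visceral one of sheep 255 and the epicardial ones of sheep 185 and 255. For the visceral comparison, 14 of the 84 microRNAs had an unadjusted p under 0.05; edgeR called 0 and DESeq2 called 7 higher and 1 lower.

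Within single sheep the perirenal library had the highest MIR143 share of its 4 depots in 4 of 4 prenatal T sheep and in 4 of 4 control sheep. On the common scale it was the highest in 3 of 4 prenatal T sheep and in 4 of 4 controls, the exception being sheep 255, with 53272 rescaled counts in perirenal and 73823 in visceral fat. Epicardial fat was the lowest on this scale in 3 of 4 prenatal T sheep and 4 of 4 controls, and by share in 2 of 4 sheep of each treatment. The perirenal share exceeded that of the next depot of the same sheep 4.47-fold, 1.17-fold, 2.04-fold and 1.14-fold in prenatal T sheep 48, 185, 233 and 255. It did so 1.17-fold, 3.62-fold, 2.02-fold and 6.64-fold in control sheep 098, 131, 132 and 201. The margin was widest in control sheep 201, whose perirenal library is early and whose other 3 are later ones, and narrowest in prenatal T sheep 255, whose 4 libraries are all early ones.

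**Figure D2:**
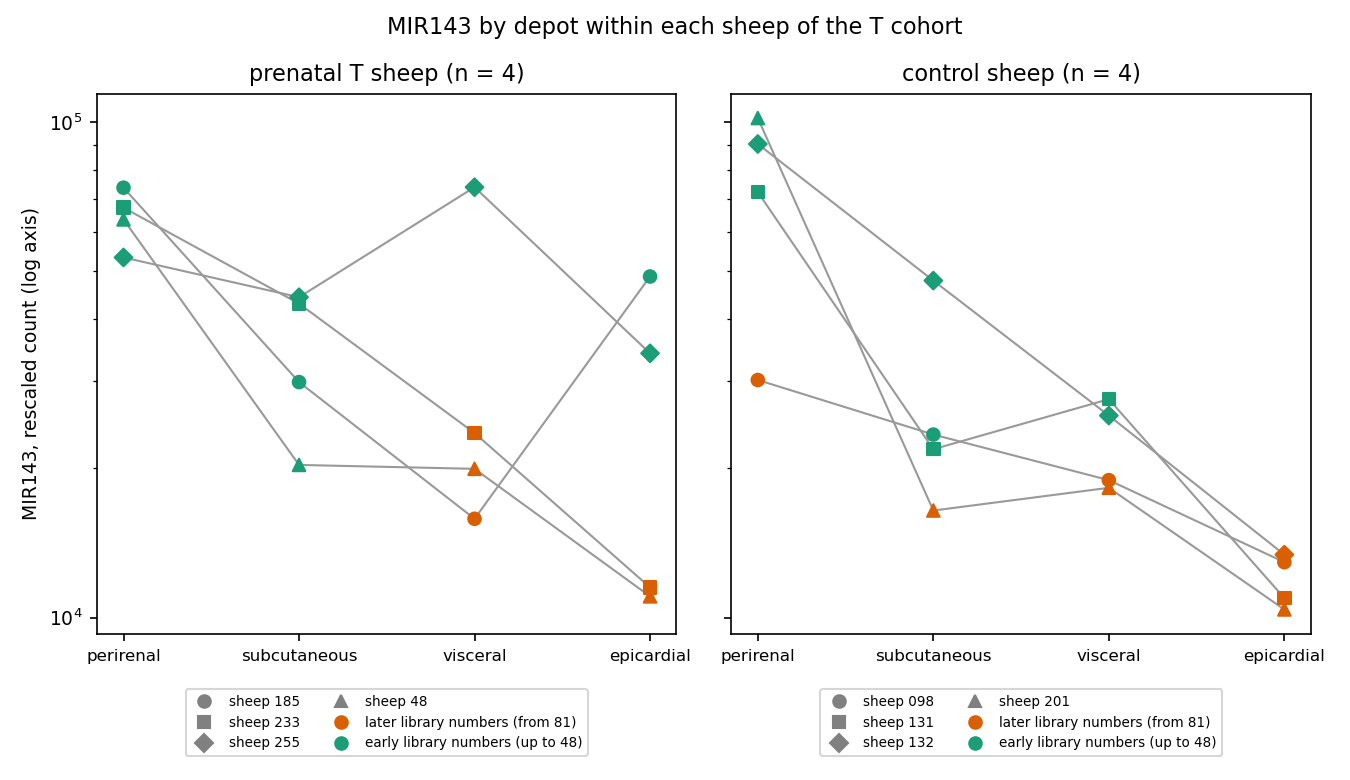
MIR143 as rescaled counts (log axis, common scale of the T cohort) in the 4 depots of each sheep, prenatal T sheep on the left and control sheep on the right. Lines join the libraries of 1 sheep and colours mark the library-number set; perirenal fat is highest in 7 of 8 sheep and epicardial fat lowest in 7 of 8.

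Neighbours in the order of depots were compared in the same fits. In prenatal T sheep, perirenal minus subcutaneous fat was 0.93 (SE 0.52, adjusted p = 0.186 by limma, 15.5% of microRNAs called), subcutaneous minus visceral fat 0.26 (SE 0.52, adjusted p = 0.739, 26.2% called) and visceral minus epicardial fat 0.32 (SE 0.52, adjusted p = 0.960, 2.38% called). None passed. All 8 libraries of the first of these pairs are early ones, their shares did not overlap, and with the set as a term the same difference of 0.93 had an adjusted p of 0.0190. In control sheep, perirenal minus subcutaneous fat was 1.41 (SE 0.38, adjusted p = 0.00870, 30.3% called), which passed. Without control sheep 131 it was 1.17 (adjusted p = 0.0998) and without sheep 201 it was 0.96 (adjusted p = 0.144). Subcutaneous minus visceral fat was 0.22 (SE 0.38, adjusted p = 0.698, 34.2% called) and visceral minus epicardial fat 0.94 (SE 0.38, adjusted p = 0.0856, 17.1% called), and neither passed. On rescaled counts the visceral control libraries, at 18274 to 27582, did not overlap the epicardial ones, at 10385 to 13397. By share they overlapped, at 1.96% to 4.51% and 1.39% to 2.65%. The visceral libraries of sheep 131 and 132 are early ones, whereas all the epicardial ones are later. How many other microRNAs fail to overlap was not counted for this pair, nor for the perirenal and subcutaneous pair above.

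In the BPA cohort MIR143 showed no difference between the 2 depots that passed the test. Visceral minus subcutaneous fat was 0.12 log2 units in BPA sheep (SE 0.27, adjusted p = 0.720 by limma), in a comparison where 48.6% of the 74 microRNAs were called. It was -0.12 in the control sheep (SE 0.32, adjusted p = 0.777), where 27% were called. By share, the visceral library was above the subcutaneous one in 3 of 4 BPA sheep and 2 of 4 control sheep. With the set as a term the control difference was -0.63 (adjusted p = 0.0306); 3 of the visceral and 1 of the subcutaneous control libraries are early ones.

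The comparison the study was built for is that of treated and control sheep within a depot, made here on the deposited values, which are on 1 scale within a depot. MIR143 passed the test in none of the 6 comparisons. In subcutaneous fat it averaged 28954 ± 8935 deposited normalized counts in prenatal T sheep and 25462 ± 14758 in control sheep (SD, n = 4 each), a difference of 0.28 log2 units (SE 0.38, adjusted p = 0.997). In visceral fat it averaged 17603 ± 13237 in prenatal T sheep and 12774 ± 3152 in control sheep, a difference of 0.25 (SE 0.45, adjusted p = 0.877). Without prenatal T sheep 255 the visceral difference was -0.19 (adjusted p = 0.840). In perirenal fat it averaged 98205 ± 17286 in prenatal T sheep and 115680 ± 48797 in control sheep, a difference of -0.12 (SE 0.46, adjusted p = 0.933). By share of microRNA reads the perirenal difference was 0.46 log2 units (exact permutation p = 0.457), so that its direction depends on the scaling.

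Epicardial fat gave the largest of the 6 differences. MIR143 averaged 35820 ± 24837 deposited normalized counts in prenatal T sheep and 13823 ± 1765 in control sheep (SD, n = 4 each), a difference of 1.08 (SE 0.45, adjusted p = 0.171 by limma), 6th highest of 85 microRNAs. DESeq2 on the recovered reads gave 1.34 (adjusted p = 0.0165) and edgeR 1.32 (adjusted p = 0.0678). Among later libraries alone, 2 prenatal T against 4 control ones, the difference was 0.12 (adjusted p = 0.862). The 2 early prenatal T libraries have no early control beside them, so that in them treatment and library number cannot be told apart. Markers of other cells varied in the same libraries. MIR133, the 1 row in the tables of 5 striated muscle markers, had 372 to 25852 CPM, counts for each 1000000 microRNA reads, in prenatal T and 1295 to 6332 in control epicardial fat, and MIR150, a microRNA of lymphocytes and the 1 row of 4 immune cell markers, had 2757 to 5410 in prenatal T and 6701 to 8144 in control. Their part in the MIR143 difference was not tested.

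In the BPA cohort the differences were small beside their errors. In subcutaneous fat MIR143 averaged 21966 ± 3363 in BPA sheep and 25139 ± 13236 in control sheep (SD, n = 4 each), a difference of -0.07 (SE 0.30, adjusted p = 0.904 by limma). Without control sheep 908, which leaves later libraries alone, it was 0.24 (adjusted p = 0.527). In visceral fat MIR143 averaged 22556 ± 11209 in BPA sheep and 19076 ± 4564 in control sheep, a difference of 0.15 (SE 0.30, adjusted p = 0.850). These p-values measure the spread between sheep, with 4 against 4.

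Of the other microRNAs none passed either: limma called 0% of the 71 to 86 microRNAs in each of the 6 treatment comparisons. At an unadjusted p under 0.05 there were 2 in subcutaneous, 4 in visceral, 20 in epicardial and 7 in perirenal fat for prenatal T, and 6 in subcutaneous and 4 in visceral fat for BPA. DESeq2 called 7 higher and 5 lower in epicardial fat, 1 in visceral and 1 in perirenal fat for prenatal T and 0 in the other 3 comparisons, and edgeR called 2 in subcutaneous fat of prenatal T sheep and 0 in the other 5 comparisons. In bulk tissue fewer cells of a type and less RNA per cell cannot be told apart.

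**Figure D3:**
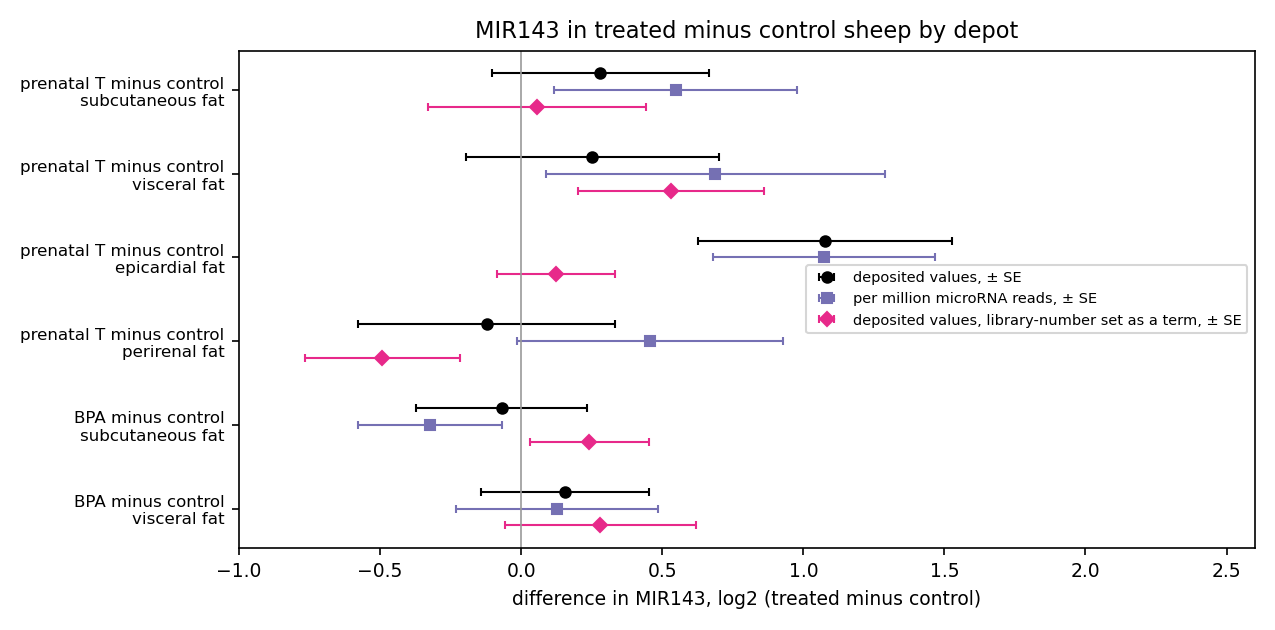
Difference in MIR143 between treated and control sheep in each depot, in log2 units, with its SE, on deposited values, as CPM of microRNA reads, and on deposited values with the library-number set as a term. The epicardial difference of 1.08 is 0.12 with the set term, and the perirenal one changes sign between scalings.

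Averaged over the 4 depots of each sheep, MIR143 lay at 14.5 to 15.6 on the log2 scale in prenatal T sheep and at 14.3 to 15.1 in control sheep, and the groups overlap. The difference was 0.37 (SE 0.28, adjusted p = 0.451 by limma; exact two-sided permutation p = 0.257, where the smallest possible is 0.0286). With the fraction of later libraries per sheep as a term it was 0.12 (adjusted p = 0.808). The effect of prenatal T was not shown to differ between depots (limma F test of the 3 interaction terms, adjusted p = 0.895). The BPA effect in visceral minus subcutaneous fat was 0.22 (SE 0.46, adjusted p = 0.857). In each of these 3 fits 0% of the 73 to 80 microRNAs were called; 11 had an unadjusted p under 0.05 for the mean of 4 depots, and 1 did in each interaction.

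MIR143 was lower in later than in early libraries. Over all libraries the share was 1.39% to 7.52% in later ones, with a median of 2.61% (n = 24). In early ones it was 2.44% to 17.5%, with a median of 7.21% (n = 24). These pooled values mix depot with set. Of the perirenal libraries 7 are early and 1 is later, and of the epicardial ones 2 are early and 6 are later. Of the 8 groups that hold both sets, the later libraries had the lower mean share in 7, and in the same 7 no later library reached an early one. The exception was visceral fat of BPA sheep, where the later mean was 0.516 percentage points above the 1 early library. Of these groups, only epicardial fat of prenatal T sheep and visceral fat of T cohort controls hold more than 1 library of each set. With a single library on one side, full separation can readily arise by chance. How many other microRNAs separate in this way was not counted. The widest gap, of 12.2 points, was in visceral fat of prenatal T sheep, with a mean of 3.15% in 3 later libraries and 15.4% in the 1 early library.

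The mean of these within-group differences was -4.54 percentage points for later minus early libraries (exact two-sided permutation within groups, p = 0.000339, over 147456 assignments). It was -6.25 points in the T cohort alone (p = 0.000434, exact permutation) and -1.69 points in the BPA cohort alone (p = 0.203, exact permutation). These permutations take libraries of the same sheep as independent, although the sheep recur across the groups. On rescaled counts, beside the group means, later minus early libraries differed by -1.31 log2 units in the T cohort (SE 0.20, adjusted p = 1.22e-05 by limma). That was the 2nd lowest of 80 microRNAs, of which 37.5% were called. In the BPA cohort the difference was -0.62 (SE 0.28, adjusted p = 0.179), where 9.59% of 73 were called. Without BPA sheep 918 it was -1.02 (adjusted p = 0.0401), without control sheep 908 it was -0.16 (adjusted p = 0.805), and with sheep as a block it was -0.30 (adjusted p = 0.662).

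Other contents of the libraries moved with the sets. Members of the let-7 family took 42.6% to 72.2% of microRNA reads in later libraries, with a median of 57.4%, and 25% to 69.5% in early ones, with a median of 50.5%. With let-7 reads left out of the total, MIR143 still took 3.92% to 16.4% (median 6.92%) in later libraries and 6.37% to 27.1% (median 12.6%) in early ones, and the mean difference within groups was -6.49 points (exact permutation p = 0.000332). Sheep and depot also differ between the sets: in the T cohort control groups that hold both, every later library is of sheep 098 or 201. Both sheep also gave early libraries, and with sheep as a block the T cohort difference was -1.32 (SE 0.25, adjusted p = 0.000712 by limma).

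**Figure D4:**
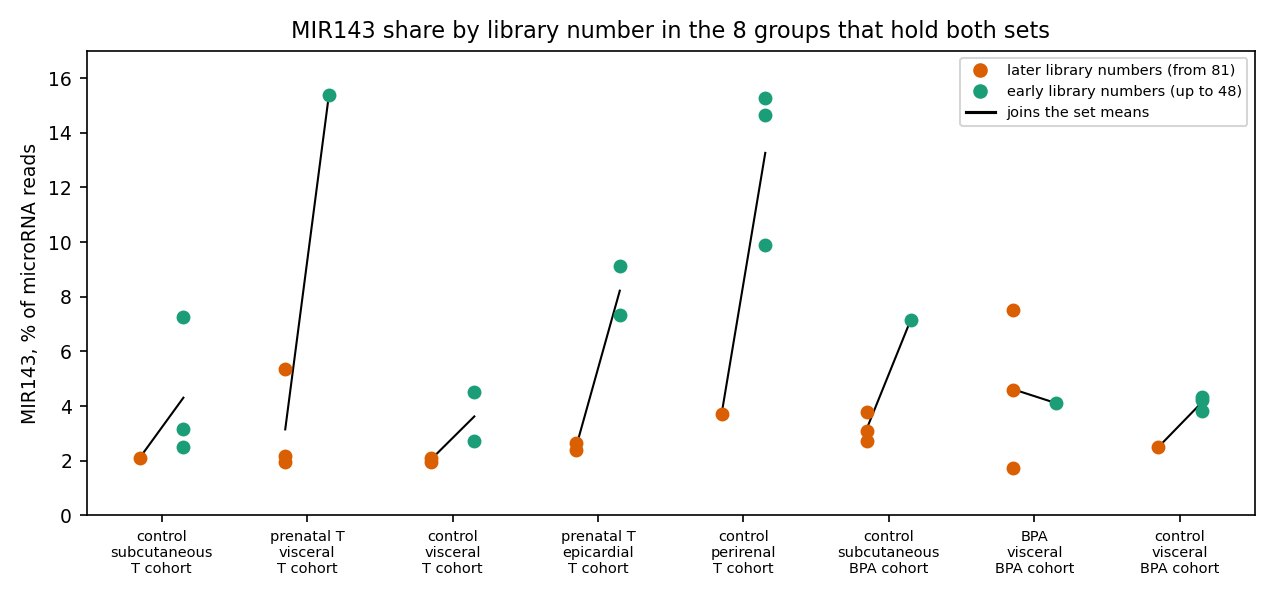
MIR143 as a percentage of microRNA reads in later and early libraries of the 8 groups that hold both sets, later ones on the left of each group. Points are libraries and lines join the means of the sets; the line rises to the early libraries in 7 of 8 groups, the exception being visceral fat of BPA sheep.

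The microRNAs most like MIR143 were sought over the 12 group means of log2(CPM + 1), among 72 others with a mean of at least 5 in both tables. MIRLET7F, of the let-7 family, had the highest Pearson r, at 0.904. It was followed by MIR29B-1 and MIR29B-2, repressors of collagen genes, both at 0.822, by MIR30A, known to favour human adipocyte differentiation, at 0.797, and by MIR10B, which lies among the HOXD genes, at 0.760. The 2 MIR29B genes have the same values in every group and may share their reads. The median r over the 72 was 0.149, with quartiles of -0.225 and 0.405. The order depended on the measure. By Spearman's rank correlation over the same means MIR148A was highest, at 0.804. By that measure MIR30A had 0.783, MIRLET7F 0.678, MIR10B 0.636 and the MIR29B genes 0.531. For deviations of the 48 libraries from their group means, MIR152 had the highest Pearson r, at 0.884.

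MIRLET7F averaged 55379 CPM in perirenal fat of prenatal T sheep and 46644 in that of control sheep, and 15505 in visceral fat of control sheep, its lowest group. MIR10B had 21295 in perirenal fat of prenatal T sheep and 15077 in that of controls, and 817 in epicardial fat of controls, where MIR143 too was lowest. At the other end stood MIR106B, of the miR-17 family, with an r of -0.884, MIRLET7C with -0.840 and MIRLET7B with -0.774. MIR106B had its lowest mean, 1313, in perirenal fat of prenatal T sheep. MIRLET7B had 77333 in that group, its lowest, and 253091 in visceral fat of control sheep of the BPA cohort. These r are descriptions over 12 points that share libraries, a fixed total per library and a changing mix of library-number sets, and closely related let-7 genes can divide reads between them.

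**Figure D5:**
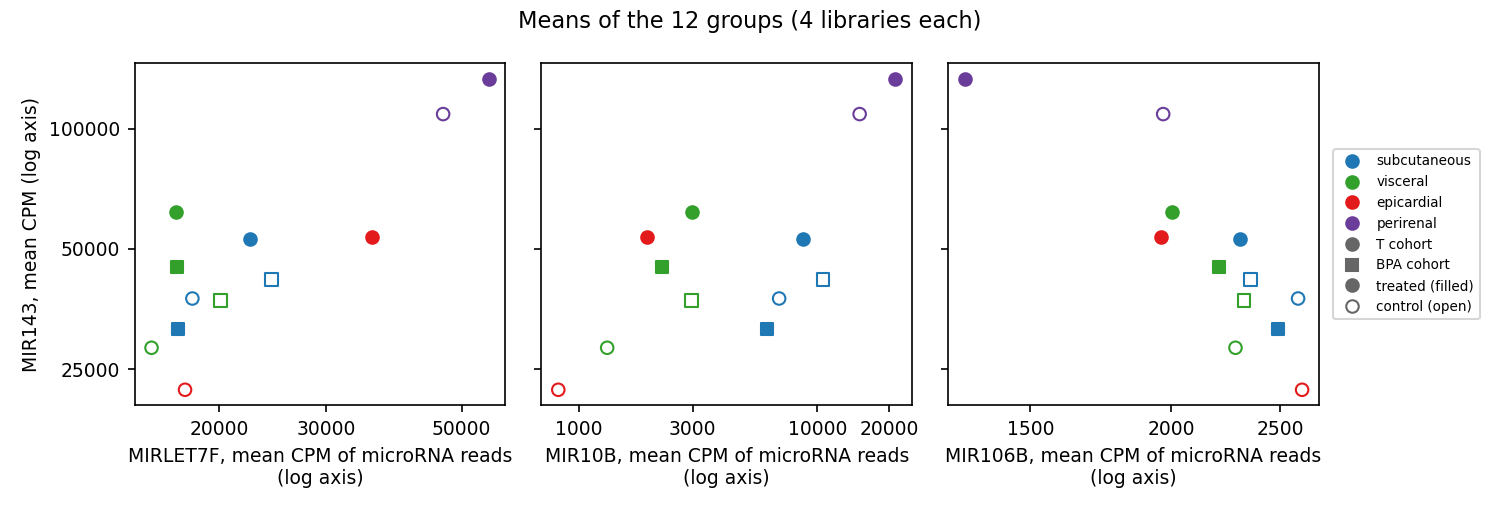
Mean CPM of MIR143 (vertical, log axis) against MIRLET7F, MIR10B and MIR106B (horizontal, log axes) in the 12 groups of 4 libraries, coloured by depot. The 2 perirenal groups lie highest for MIR143 and, with it, for MIRLET7F and MIR10B, and the perirenal prenatal T group lies lowest for MIR106B.

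In the same fits, 3 lists of microRNAs with roles near those of MIR143 were read. Of the smooth muscle list, 8 rows were in the tables. In perirenal against other fat of prenatal T sheep 1 of these 8 was higher, MIR10A (1.17), and 1 was lower, MIR221 (-1.08), a microRNA that favours smooth muscle proliferation, beside 10.7% called of all microRNAs tested. The list's median was 0.16, against -0.06 over all microRNAs tested. In control sheep 3 of the 8 were higher, MIR10A (1.66) and the 2 MIR29B genes (1.27 each), and MIR221 was lower (-1.22), beside 13.2% called of all. The 2 MIR29B genes have the same values, so the 3 higher rows may hold a single measurement counted more than once. The list's members went both ways, and its median was 0.04, against -0.02 over all.

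In epicardial against other fat the same list held changes in both directions. In prenatal T sheep MIR133 was higher (3.80) and MIR10A lower (-3.30), beside 4.76% called of all, with a list median of 0.01 against 0.09 over all. In control sheep MIR133 was higher (1.98), while MIR10A (-3.86), both MIR29B genes (-0.93 each) and MIR221 (-0.89) were lower, 5 of 8 beside 42.1% called of all, with a median of -0.76 against -0.00 over all. Both MIR29B genes have the same values here too, so a single measurement may be counted more than once among the 5. MIR133 is a microRNA of heart and skeletal muscle that also holds back the switching of smooth muscle cells.

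Of the 13 rows of the list that favours adipocyte formation, 0 were higher and 1 lower in perirenal fat of prenatal T sheep, MIR30D (-0.92). That is 1 of 13 beside 10.7% called of all microRNAs tested. In perirenal fat of controls 0 passed, beside 13.2% called of all. Their medians were -0.28 in prenatal T sheep and -0.05 in controls, against -0.06 and -0.02 over all. In epicardial fat of prenatal T sheep 0 passed, and in that of controls 2 were lower, MIR30A (-0.70) and MIR103 (-0.85), 2 of 13 beside 42.1% of all microRNAs tested.

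Of the 11 rows of the list that opposes adipocyte formation, which holds the let-7 family, MIR221 was again lower in perirenal fat. In control sheep MIRLET7F was higher (1.34). In prenatal T sheep this was 1 of 11 called, beside 10.7% of all. In controls 1 was lower and 1 higher of 11, beside 13.2% of all. The list's medians in perirenal fat were -0.54 in prenatal T sheep and -0.06 in controls, against -0.06 and -0.02 over all. In epicardial fat of prenatal T sheep 0 of the 11 passed, beside 4.76% of all. In that of controls MIR369 was higher (1.91) and MIRLET7I (-0.64), MIRLET7G (-0.59), MIR221 (-0.89) and MIRLET7F (-0.88) were lower, 5 of 11, near the 42.1% called of all. The list's medians in epicardial fat were -0.31 in prenatal T sheep and -0.48 in controls, against 0.09 and -0.00 over all. For treatment, 0 of the rows of the 3 lists passed in each of the 6 comparisons. Between library-number sets of the T cohort, 1 of 8 rows of the smooth muscle list was lower in later libraries, MIR10A (-0.97), where 37.5% of all microRNAs were called. Of the list that favours adipocyte formation 2 were lower, MIR148A (-1.22) and MIR26B (-0.99), and 2 were higher, the MIR181A genes (0.80 each), 4 of 13 and below that share. Of the 11 rows of the list that opposes it 3 were lower, MIRLET7F (-0.93) among them. Another 4 of the 11 were higher, MIRLET7D (1.08), MIRLET7C (0.97), MIRLET7B (0.97) and MIR106B (0.67). Lower and higher rows together made a larger part of this list than the 37.5% called of all, which counts both directions.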

How the data were processed

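Total RNA of fat was made into libraries with a small RNA kit and sequenced. The submitters' processing notes list cutadapt 3.2, STAR 2.6.0c and featureCounts 1.6.1, with no role or order. No source used here gives the build. What the authors deposited is a normalized signal. From 100% of the values whole reads could be computed (tolerance 1e-05). For microRNAs the scaling by the authors matched median-ratio factors taken per depot of each cohort. The factors of the other RNA classes were not compared. Depot comparisons therefore used values rescaled together, and treatment comparisons the deposited ones. microRNAs with a mean of at least 5 were fitted as log2(value + 1) with limma 3.58.1 and its trend option (R 4.3.3); edgeR 4.0.16 and DESeq2 1.42.0 on recovered reads were alternatives. A fold on this scale understates changes of low features. The fit was tested on simulated data. Shares were compared by exact permutation, which takes libraries of 1 sheep as independent.

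Depots of a cohort come from the same sheep, which pairs their libraries (median r of deviations within sheep 0.141, T cohort, and 0.187, BPA cohort; between sheep -0.025 and 0.016). Of 72 replicate pairs none was a repeated library (chi-square per degree of freedom 39.9 to 4149). MIR143 and the lists were chosen with earlier results of these data known. Likeness was read from the 5 highest and 3 lowest r. Markers of endothelium, erythroid cells and brown fat have no row in the tables. The epithelial markers, 3 rows, summed to 4.49 to 719.7 CPM.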

Additional observations from a re-analysis of the deposited data

Results flagged for a closer look

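In visceral fat of prenatal T sheep, the library of sheep 255 held 37338 deposited normalized counts of MIR143, against 9227 to 12795 in the other 3 sheep of the group. Its gap to the next library was 0.873 of the whole range, above the 95% limit of Dixon's test for 4 samples. It is the only early library of that group. Levels and shares were tested in 12 groups each, and this level was the 1 value past the limit, where chance takes about 1 group in 20.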

How the results depend on the processing

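Each test of MIR143 was repeated with other pseudocounts, filters, tools and scalings, with the library-number set as a term and without each library or sheep in turn, 448 repeats in all. Of these, 402 kept the direction and the side of the threshold. They include 15 repeats of the F test of the prenatal T effect between depots. That test has no direction, so only its side of the threshold could change. The perirenal and epicardial differences in control sheep, the difference between library-number sets in the T cohort and the overall share difference kept theirs in every repeat, except that the share difference in the BPA cohort alone was -1.69 points (p = 0.203, exact permutation). Within the later set alone, the place of the epicardial control libraries depended on the scale, as given above. The cause of the changes below was not tested.

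For treatment, DESeq2 passed the epicardial difference (1.34). The perirenal difference was 0.46 as CPM of microRNA reads and as a share, and 0.50 as CPM of the 4 RNA classes. Subcutaneous BPA minus control was 0.24 with the set term and in later libraries alone. Without single libraries, prenatal T minus control ranged over -0.19 to 0.48 in visceral and -0.49 to 0.074 in perirenal fat, BPA minus control in subcutaneous fat over -0.29 to 0.24, and BPA minus control in visceral fat over -0.14 to 0.40. The BPA effect in visceral minus subcutaneous fat ranged over -0.091 to 0.51.

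With the scaling as deposited, visceral fat lay -1.53 in prenatal T and -1.36 in control sheep from the other depots, perirenal fat lay 2.08 in prenatal T sheep (all 3 then passed), visceral minus epicardial fat was -0.96 in prenatal T and -0.14 in control sheep, and visceral minus subcutaneous fat was -0.071 in BPA sheep. As CPM of microRNA reads, visceral minus epicardial fat was -0.073 in prenatal T sheep. With the set term, subcutaneous fat of prenatal T sheep lay -0.82 from the other depots and passed, visceral fat lay 0.74 from them, subcutaneous minus visceral fat was -1.17 in prenatal T and -0.020 in control sheep, and visceral minus subcutaneous fat was -0.63 in BPA cohort controls. Subcutaneous fat of T cohort controls lay 0.054 from the other depots by edgeR and 0.083 by DESeq2. With sheep as a replicate block, pairing the depots, perirenal fat of prenatal T sheep lay 1.21 from the others and passed; the block changed no other call. With both treatments in 1 fit it lay 1.26.

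Without single sheep the subcutaneous difference ranged over -0.16 to 0.12 in prenatal T and -0.32 to 0.25 in control sheep, the visceral one over -0.80 to 0.00061 and the perirenal one over 0.95 to 1.61 in prenatal T sheep, and subcutaneous minus visceral fat over -0.043 to 0.47 in controls. Visceral minus subcutaneous fat ranged over -0.13 to 0.33 in BPA sheep and -0.44 to 0.17 in their controls, and later minus early libraries of the BPA cohort over -1.02 to -0.16. Treated and control sheep are different animals, so no paired test of treatment could be made. The treatment comparisons had 4 sheep a group and an SE of 0.30 to 0.46 log2 units.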
